A study of Mus musculus with 2 samples.

Results

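This is a description of 6 long noncoding RNAs that are known mainly from the nucleus, Malat1, Neat1, Meg3, Miat, Snhg11 and Kcnq1ot1, in single cells of the mouse dentate gyrus. They were chosen by name out of 15474 genes in the counts, and all 6 are listed there. The choice was made with values of these same libraries in view, so their levels, ratios and spread are given as descriptions. Of the 6, 5 passed a filter of at least 200 UMIs over both libraries and a UMI in at least 10% of the cells of one. Neat1 did not pass it, with 94 UMIs in all. UMIs are short random tags that mark single RNA molecules before amplification.

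The cells were sorted one by one into plates and counted by SORT-seq, in which the primer in a well anneals to runs of A and carries the barcode of that well. The fresh library came from the pooled dentate gyrus of 3 C57BL/6J mice of 4 to 5 weeks, and a dead-cell stain was used to gate these cells. The MeOH-fixed library came from 4 pooled mice of the same strain and age, whose cells were fixed in methanol, stored for 3 weeks, rehydrated and sorted without that stain. After the authors' filter the fresh library held 64 cells and 534122 UMIs, and the MeOH-fixed library 132 cells and 729018 UMIs. With 1 library for each condition no test could be made, and a difference between the libraries has no replicate check, so the pool of mice, the plate, the stain and the fixation cannot be told apart. Levels are CPM, the summed counts of an RNA scaled by the summed counts of all genes in the same cells. The intervals in brackets are exact, at 95%, and cover counting error only. The same 384 well barcodes were used on both plates, and 24 of them belong to a filtered cell in each.

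Cell identities were taken from the deposited annotation, which has 8 of them. Neurons are here the nIPCs and neuroblasts, immature neurons and mature neurons (23 fresh and 65 MeOH-fixed cells), and glia are the astrocytes and radial glia-like cells (RGLs), OPCs, oligodendrocytes and microglia (35 and 59 cells). Endothelial cells (6 and 8 cells) are in neither class. The summed level of an identity's markers was highest in that identity for 6 of 8 lists in the fresh and 7 of 8 in the MeOH-fixed library. The list of mature neurons (Rasgrp1, Smad3, Kcnip3, Mfsd4, Tanc1 and Calb1) was highest in immature neurons in both, and that of immature neurons was highest in nIPCs and neuroblasts in the fresh library.

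Only 2 fresh cells carry the name of mature neurons, and they go against it. They held 1 UMI of the 6 markers between them. One of them had 9920 transcripts, of which Kcnq1ot1 alone took 28.0% with 2018 UMIs and mitochondrially encoded genes took 1.48%. The other had 4326 transcripts, with 1.63% from Kcnq1ot1 and 2.32% from Malat1. The 19 MeOH-fixed cells of that name held a median of 4 UMIs of the markers, from 0 to 17. Another cell also weighed on several results. The MeOH-fixed mature neuron with the most Meg3 (19560 transcripts, 5574 genes) held 542 of the 1037 Meg3 UMIs and 253 of the 325 Snhg11 UMIs of its whole library. The levels, ratios and spread that rest on these 3 cells are given with and without them. Where 1 cell held most UMIs of an RNA in an identity, this is said for the levels printed in the text.

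Long noncoding RNAs are transcribed and often spliced and polyadenylated as mRNAs are, but many stay in the nucleus. Malat1 gathers in nuclear speckles, the stores of splicing factors, and Neat1 is the scaffold of paraspeckles, nuclear bodies built of RNA and RNA-binding proteins. Meg3 is made from the maternal allele of the imprinted Dlk1-Meg3 domain, and Kcnq1ot1 from the paternal allele of the Kcnq1 domain, where it silences neighbouring genes. Miat, also known as Gomafu, forms nuclear bodies of its own in neurons. Snhg11 is a host gene of small nucleolar RNAs that is transcribed mainly in the nervous system.

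The loci are given on GRCm38, the build that the authors mapped to, from GENCODE vM21. Malat1 (chr19:5795690-5802672) and Neat1 (chr19:5824708-5845478) are neighbours on the minus strand, with 22036 bases between them. Meg3 lies at chr12:109541001-109571726 on the plus strand, Miat at chr5:112213228-112229395 on the minus strand and Snhg11 at chr2:158375638-158386145 on the plus strand. Kcnq1ot1 (chr7:143203458-143296549, minus strand) lies within Kcnq1 on the opposite strand. GENCODE calls Malat1, Neat1, Meg3 and Miat lincRNAs, Kcnq1ot1 antisense and Snhg11 protein coding. The longest transcripts have 6983 bases for Malat1, 20771 for Neat1, 14548 for Meg3, 9163 for Miat, 5864 for Snhg11 and 93092 for Kcnq1ot1, and those of Malat1, Neat1 and Kcnq1ot1 have 1 exon. Whether strand was used in counting is not given in the sources used here, and isoforms were not separated.

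Stretches of these transcripts are shown because they set what the RNAs bind and where a primer for runs of A can anneal. Malat1 and the longest transcript of Neat1 end, after processing, in no added tail but in a triple helix. It is formed of 2 U-rich motifs and an A-rich tract, in capitals in the next 2 lines (T stands for U). Neat1 has 4 annotated transcripts, which the counts do not tell apart, and this end is given for the longest only. The stretch of Malat1 is chr19:5795982-5796077 and that of Neat1 is chr19:5824708-5824807, both read on the minus strand.
Malat1: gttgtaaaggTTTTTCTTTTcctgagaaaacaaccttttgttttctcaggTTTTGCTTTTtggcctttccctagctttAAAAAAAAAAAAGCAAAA
Neat1: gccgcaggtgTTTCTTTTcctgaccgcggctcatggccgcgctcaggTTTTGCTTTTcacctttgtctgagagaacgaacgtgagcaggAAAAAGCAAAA
The A-rich tract of Malat1 has a run of 12 A, which is the longest run in the transcript, while the longest in Neat1 has 7. Miat is known for repeats of the branch point letters that the splicing factor Sf1 and the RNA-binding protein Qk recognise. Its longest transcript holds ACTAAC on the sense strand 11 times, and of 1039 GENCODE transcripts of similar length 0.289% hold as many or more, and their median is 1 copy. The stretch shown (chr5:112217309-112217383, minus strand) has 3 of them in capitals.
Miat: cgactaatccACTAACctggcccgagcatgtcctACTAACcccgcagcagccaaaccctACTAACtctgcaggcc
Kcnq1ot1 holds 10 runs of 10 or more A, of which 4 have 20 or more. Its longest run, in capitals, has 41 A (chr7:143226915-143227015, minus strand). Of 141767 GENCODE transcripts, 7.18% hold a run of at least 10 A and 0.0190% a run of at least 40.
Kcnq1ot1: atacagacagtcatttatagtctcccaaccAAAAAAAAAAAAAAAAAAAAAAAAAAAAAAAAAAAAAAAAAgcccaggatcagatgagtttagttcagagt

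Meg3, Miat and Snhg11 were the 3 RNAs that stood high in neurons in both libraries, and the 300 bases around their starts are shown for that reason (250 before and 50 after the start, from RefSeq on GRCm38.p6). The table of starts matched 5 of the 6 RNAs, all but Neat1. Capitals mark TGACGTCA (the cyclic AMP response element), TATAAA and CAGCTG (an E-box), searched on both strands. These occur in 1.79%, 13.6% and 16.3% of 32851 promoters. The first start of Meg3 (chr12:109540746-109541045, plus strand) has TGACGTCA 57 bases before it and TATAAA 25 bases before it, the latter overlapping its own reverse complement, 29 bases before the start. Snhg11 (chr2:158375463-158375762, plus strand) has CAGCTG 61 bases before it. Miat (chr5:112228899-112229198, minus strand) has none of the 3 motifs in this window. A second start of Meg3 (chr12:109545148-109545447, plus strand) has none either. Outside these 3 RNAs, the window of Malat1 holds CAGCTG after the start, and that of Kcnq1ot1 holds none of the motifs. A match of letters is a description and no site.
Meg3: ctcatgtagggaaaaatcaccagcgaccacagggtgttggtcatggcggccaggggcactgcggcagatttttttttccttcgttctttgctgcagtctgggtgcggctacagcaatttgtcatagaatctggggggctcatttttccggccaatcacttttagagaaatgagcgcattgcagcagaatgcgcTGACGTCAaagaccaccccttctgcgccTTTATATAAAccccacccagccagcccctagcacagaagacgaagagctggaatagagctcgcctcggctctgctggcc
Snhg11: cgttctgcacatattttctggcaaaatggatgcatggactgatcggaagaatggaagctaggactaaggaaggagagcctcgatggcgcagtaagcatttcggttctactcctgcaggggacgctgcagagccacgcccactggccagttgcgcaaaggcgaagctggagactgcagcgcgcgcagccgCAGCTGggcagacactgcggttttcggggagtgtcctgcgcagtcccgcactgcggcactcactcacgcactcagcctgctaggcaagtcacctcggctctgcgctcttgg
Miat: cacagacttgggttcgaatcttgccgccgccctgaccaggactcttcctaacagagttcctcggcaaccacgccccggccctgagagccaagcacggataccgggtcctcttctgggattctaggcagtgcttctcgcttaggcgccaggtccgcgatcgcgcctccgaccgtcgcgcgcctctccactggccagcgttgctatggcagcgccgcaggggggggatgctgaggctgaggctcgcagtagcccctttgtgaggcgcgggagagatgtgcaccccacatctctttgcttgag

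Over all filtered cells the 6 RNAs took 2.52% of the counts when fresh and 1.17% after MeOH fixation, or 2.03% without the 2 fresh cells and 0.988% without the MeOH-fixed one. Malat1, Neat1 and Kcnq1ot1 had lower levels in MeOH-fixed cells, and Meg3, Miat and Snhg11 higher ones. At a limit of 2-fold, 2 of the 6 were higher and 2 lower in MeOH-fixed cells. Among the 1022 genes that passed the filter, 13.2% were at least 2-fold higher and 4.4% at least 2-fold lower. The median log2 ratio was 0.01 over the members and 0.25 over these genes. The higher levels of Snhg11 and Meg3 rested largely on 1 cell and the lower level of Kcnq1ot1 on another, as given with each RNA.

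**Figure D1:**
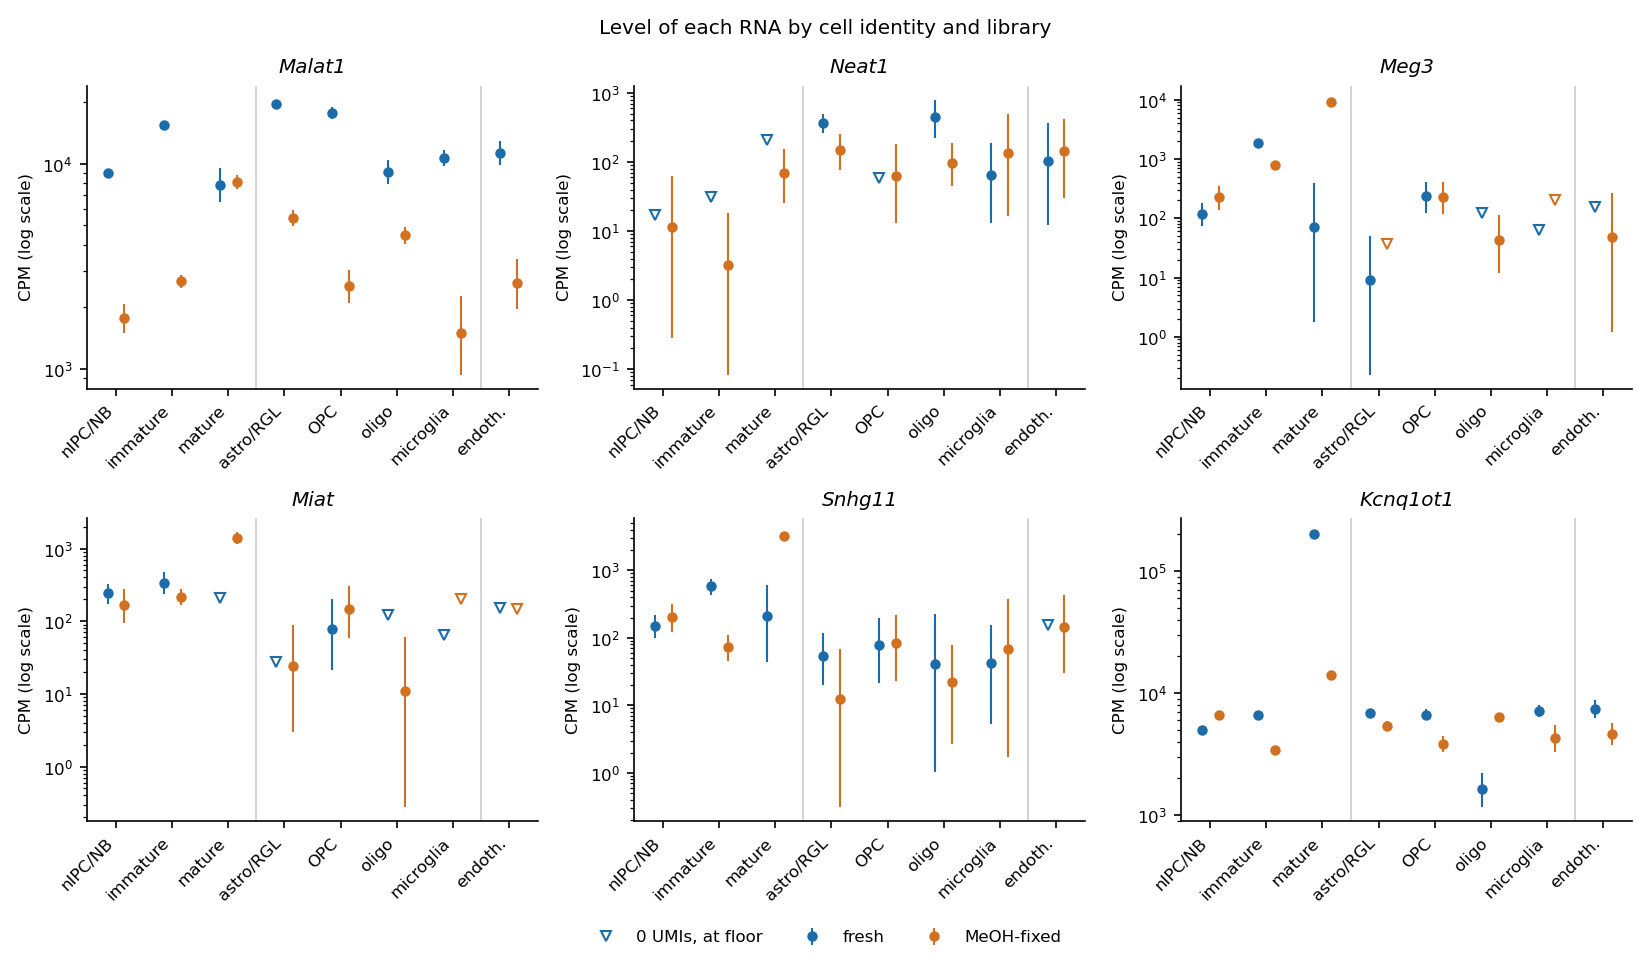
CPM (log scale) of each RNA in the 8 identities, summed over the cells of an identity, in the fresh (blue) and MeOH-fixed (orange) library. Bars are exact 95% Poisson intervals, open triangles mark 0 UMIs at the level of 3 counts, and grey lines part neurons, glia and endothelial cells. Malat1 is lower in MeOH-fixed cells of 7 identities, and Meg3, Miat and Snhg11 each have their highest point in a neuronal identity. Kcnq1ot1 is present in every identity, with its highest point in the 2 fresh cells called mature neurons.

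Malat1 was found in nearly every cell and was lower in MeOH-fixed cells. Its level was 13326.5 CPM (13016 to 13642; 6998 UMIs) in the fresh and 3702 CPM (3564 to 3845; 2695 UMIs) in the MeOH-fixed library, 3.60-fold lower (3.44 to 3.76). Of the 1022 genes, 0.978% had a log2 ratio as low as its -1.85 or lower. Leaving out the 2 fresh cells called mature neurons gave -1.86. A UMI of Malat1 was counted in 62 of 64 fresh and 118 of 132 MeOH-fixed cells. The median fresh cell had 1.11% of its counts in Malat1 and the median MeOH-fixed cell 0.165%. Malat1 took over 1% of the counts in 37 of 64 fresh cells and in 13 of 132 MeOH-fixed cells.

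The lower level of Malat1 was seen in 7 of the 8 identities, in each with an interval of the ratio below 1. In fresh cells the order ran from astrocytes and RGLs (19591 CPM) and OPCs (17705 CPM), whose intervals overlapped, over immature neurons (15349 CPM), endothelial cells (11248 CPM), microglia (10640 CPM) and oligodendrocytes (9140 CPM) to nIPCs and neuroblasts (9004 CPM) and the 2 cells called mature neurons (7877 CPM). The intervals of neighbours overlapped among the last 5. In MeOH-fixed cells mature neurons came first (8147 CPM), followed by astrocytes and RGLs (5435 CPM), oligodendrocytes (4478 CPM) and immature neurons (2673 CPM), while endothelial cells had 2616 CPM, OPCs 2541 CPM, nIPCs and neuroblasts 1769 CPM and microglia 1494 CPM. Immature neurons, endothelial cells and OPCs overlapped in this order, and so did the last 2. The fold by which MeOH-fixed cells were lower was 7.12 (4.65 to 11.5) in microglia, 6.97 (5.75 to 8.51) in OPCs, 5.74 (5.26 to 6.27) in immature neurons and 5.09 (4.32 to 6.04) in nIPCs and neuroblasts. It was 4.30 (3.18 to 5.91) in endothelial cells, 3.60 (3.25 to 4.00) in astrocytes and RGLs and 2.04 (1.72 to 2.41) in oligodendrocytes. Of the 403 UMIs of the 13 MeOH-fixed oligodendrocytes 222 came from 1 cell, without which they stood at 2337 CPM (2009 to 2703). The fold was then 3.91 (3.20 to 4.79). In fresh oligodendrocytes 1 of the 2 cells held 219 of 220 UMIs, so the lower level there rests on that cell. Without it the direction turned, with MeOH-fixed cells 20.9-fold higher (3.72 to 826) than the other fresh cell, which stood at 215 CPM (5.43 to 1196). In MeOH-fixed microglia 1 of 7 cells held 13 of 22 UMIs, and without it the fold was 14.9 (7.79 to 32.8). In fresh OPCs 1 cell held 464 of 871 UMIs, and with the other 4 the fold was 6.48 (5.28 to 8.02). Of the 111 UMIs in the 2 fresh cells called mature neurons, 1 cell held 99. Mature neurons, where the fresh cells go against their name, had a log2 ratio of 0.05 (-0.24 to 0.35). Malat1 was the only one of the 1022 genes (0.0978%) that was at least 2-fold lower in 7 or more identities. This limit was set from the values of Malat1, so its passing was given beforehand and does not show that Malat1 stands out. With the UMI limit of the filter lowered to 50, 3 of 5068 genes (0.0592%) met it.

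**Figure D2:**
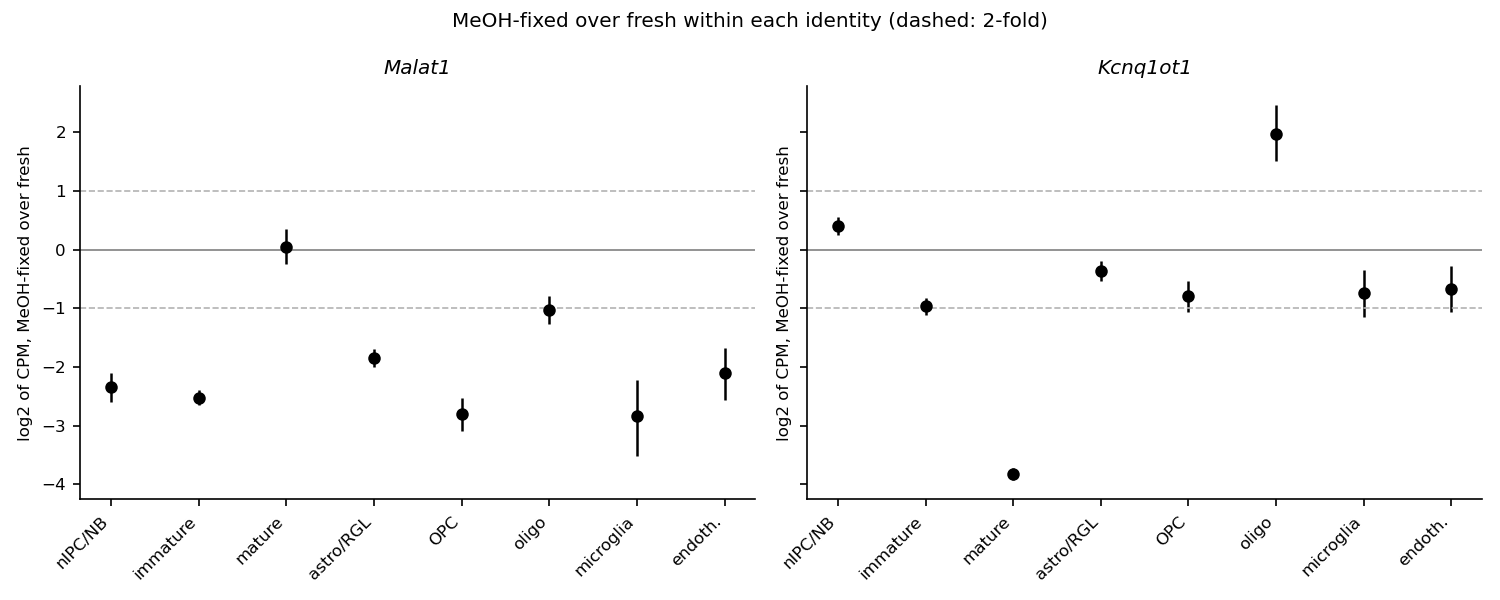
Log2 ratio of CPM, MeOH-fixed over fresh, of Malat1 and Kcnq1ot1 within each of the 8 identities, with exact 95% intervals for counting error, and dashed lines at 2-fold. The 7 values of Malat1 other than that of mature neurons lie between -2.83 and -1.03, while those of Kcnq1ot1 fall on both sides of 0, from -3.83 in mature neurons to 1.97 in oligodendrocytes, where 1 MeOH-fixed cell holds 371 of 565 UMIs.

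Between neurons and glia Malat1 differed little. It was 1.47-fold lower (1.40 to 1.54) in neurons of the fresh library and 1.21-fold lower (1.12 to 1.31) in neurons of the MeOH-fixed library, at log2 ratios of -0.56 and -0.28. This direction holds for shares of the counts, and it turned when counts were taken per cell or per spike-in count, with log2 ratios of 0.36 and 0.24 in the fresh library and 0.61 and 0.42 in the other. The median neuron had 11387 transcripts in the fresh and 4889 in the MeOH-fixed library, against 5949 and 2695 for the median glial cell. Within the neurons, the level in MeOH-fixed mature neurons was 3.05-fold (2.75 to 3.38) that of immature neurons and 4.61-fold (3.87 to 5.52) that of nIPCs and neuroblasts. Depth and mitochondrial share also differed between these identities, as the median cell had 2557 transcripts and 17.01% mitochondrial counts among mature, 11739 and 6.26% among immature neurons, and 3886 and 11.5% among nIPCs and neuroblasts. These values stand beside the levels of Meg3, Miat, Snhg11 and Kcnq1ot1 in the same identities too, and their part in them was not tested. In counts per cell Malat1 had a mean of 36.9 in mature and 32.6 in immature neurons. Fresh immature neurons had 1.70-fold (1.59 to 1.83) the level of fresh nIPCs and neuroblasts.

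Neat1 was counted mostly in glia. In the fresh library all 23 neurons together held 0 UMIs and the 35 glial cells held 55, so that its level, 236 CPM in glia, was at least 22.7-fold lower in neurons, taken at a floor of 3 counts. In the MeOH-fixed library 65 neurons held 8 UMIs (16.7 CPM) and 59 glial cells 26 UMIs (111 CPM), 6.62-fold lower (2.91 to 16.9) in neurons. Of the 1022 genes, which do not include Neat1, 12.5% were at least 2-fold lower in neurons in both libraries. A UMI was found in 12 of 35 fresh and 20 of 59 MeOH-fixed glial cells, and in 5 of 65 MeOH-fixed neurons. It was found in 0 of 23 fresh neurons, which allows a share with a UMI, at this depth, of up to 13.0%. Thinned to 800 UMIs a cell, so that depth is equal, these shares were 12.03% and 9.63% for glia, and 0% and 1.64% for neurons. For comparison, the microglial gene C1qa was found in 4.35% of fresh and 6.15% of MeOH-fixed neurons, and Cx3cr1, another, in 21.7% and 6.15%. The endothelial gene Cldn5 was found in 0% and 1.54% of them, and the oligodendrocyte gene Mbp in 52.2% and 50.8%. Whether these counts are stray RNA was not tested. The median neuron, as given above, was deeper than the median glial cell in each library.

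Among the glia, Neat1 stood at 370 CPM (265 to 502) in fresh astrocytes and RGLs, with 41 UMIs in 9 of 18 cells. Fresh oligodendrocytes had 445 CPM (222 to 797), but all 11 UMIs came from 1 of the 2 cells. Fresh microglia had 64.5 CPM (13.3 to 189), with 2 of 3 UMIs in 1 cell, and fresh OPCs 0 UMIs in 5 cells. The highest share in a cell was 0.193% of the counts, in a fresh astrocyte or RGL. In the MeOH-fixed library astrocytes and RGLs had 147 CPM (76.1 to 257), endothelial cells 145 CPM, microglia 136 CPM and oligodendrocytes 98.3 CPM. The intervals of neighbours in this order overlapped throughout. In endothelial cells 2 of the 3 UMIs, and in microglia 2 of 2, came from 1 cell. Over all cells Neat1 was 2.09-fold lower (1.36 to 3.25) in the MeOH-fixed library, at 50.3 against 105 CPM.

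Meg3 was the RNA that set neurons apart from glia most widely in the MeOH-fixed library. Its level was 689 CPM in fresh neurons and 55.7 CPM in fresh glia, 12.4-fold higher (7.07 to 23.7), and 2215 against 63.8 CPM in the MeOH-fixed library, 34.7-fold higher (20.9 to 62.2). Without the cell with the most Meg3, the log2 ratio in the MeOH-fixed library went from 5.12 to 4.03. Of the glia, OPCs alone held over 1 UMI of Meg3 in the fresh library, with 234 CPM (121 to 408), and they had 232 CPM (116 to 415.5) in the MeOH-fixed one. These rest on few cells, with 9 of 12 and 6 of 11 UMIs in a single OPC. Microglia held 0 UMIs in both libraries, in 10 and 7 cells. Astrocytes and RGLs held 1 UMI in the fresh (18 cells) and 0 in the MeOH-fixed library (29 cells).

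Among the neuronal identities Meg3 was lowest in nIPCs and neuroblasts, apart from the 2 fresh cells called mature neurons. In the fresh library it was at 118 CPM (73.1 to 181) in nIPCs and neuroblasts and at 1828 CPM (1568 to 2119) in immature neurons, 15.5-fold higher (9.82 to 25.6). The 5 fresh immature neurons had 2797, 1590, 1333, 0 and 0 CPM, and the 2 cells at 0 were the shallowest, with 3538 and 971 transcripts. In nIPCs and neuroblasts 1 of 16 cells held 18 of the 21 UMIs, and 14 cells had none. Without that cell the level was 17.5 CPM (3.60 to 51.1). In the MeOH-fixed library the level was 226 CPM (138 to 349) in nIPCs and neuroblasts, 789 CPM (693 to 896) in immature neurons and 9308 CPM (8658 to 9993) in mature neurons. The 19 mature neurons ranged from 0 to 29720 CPM, with a median of 2314 CPM. Without the cell with the most Meg3, the other 18 stood at 3303 CPM (2880 to 3771), which is still above the interval of immature neurons. A UMI was counted in 9 of 21 nIPCs and neuroblasts, 22 of 25 immature and 15 of 19 mature MeOH-fixed neurons. At 800 UMIs a cell these shares were 18.1%, 41.0% and 69.5%.

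Between the libraries Meg3 was 3.74-fold higher (3.22 to 4.36) in MeOH-fixed cells, at 1466 against 392 CPM, or a log2 ratio of 1.90. Without the cell with the most Meg3 this was 0.82. Within immature neurons the direction was the other way, with MeOH-fixed cells 2.32-fold lower (1.90 to 2.82), while OPCs had a log2 ratio of -0.01 (-1.33 to 1.30). The MeOH-fixed library has 19 mature neurons and the fresh one 2, and these 2 held 1 UMI of Meg3.

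Miat followed the same division with lower counts. It stood at 263 CPM in fresh neurons and 17.1 CPM in fresh glia, 15.3-fold higher (5.75 to 57.8), and at 422 and 42.5 CPM in the MeOH-fixed library, 9.93-fold higher (5.29 to 21.0). All 4 UMIs of fresh glia and 7 of the 10 of MeOH-fixed glia were from OPCs. Fresh nIPCs and neuroblasts had 242 CPM (175 to 325) of Miat, with a UMI in 11 of 16 cells, where Meg3 had one in 2 of 16. Among MeOH-fixed nIPCs and neuroblasts the order was the other way, with Miat in 6 and Meg3 in 9 of 21 cells. Fresh immature neurons had 341 CPM (234 to 478), so that these 2 identities overlapped, and 20 of its 33 UMIs came from 1 of 5 cells. In MeOH-fixed cells mature neurons had 1410 CPM (1170 to 1685), 6.51-fold (4.78 to 8.92) the level of immature neurons, which had 217 CPM (168 to 276). Without the cell with the most Meg3, which also held the most Miat (45 UMIs), the 18 mature neurons stood at 1144 CPM (902 to 1432). Over all cells Miat was 1.96-fold higher (1.51 to 2.56) in the MeOH-fixed library. Without the cell with the most Meg3 the log2 ratio over all cells went from 0.97 to 0.66. Within immature neurons Miat was 1.57-fold lower (1.00 to 2.42) in the MeOH-fixed library. Without the fresh cell with 20 UMIs no lower level remained there, at 1.09-fold (0.594 to 2.15) the fresh level.

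Snhg11 was also higher in neurons taken as a class, with most of its UMIs in a few of them. It was found in 11 of 23 fresh and 22 of 65 MeOH-fixed neurons. Its level was 298 CPM in fresh neurons and 55.7 CPM in fresh glia, 5.36-fold higher (2.97 to 10.5), and 672 and 34.0 CPM in the MeOH-fixed library, 19.8-fold higher (9.90 to 46.2). The second value rests on 1 cell: without it the log2 ratio fell from 4.30 to 1.96. That cell gave 1.34% of its counts to Snhg11, or 13350 CPM. The 18 other MeOH-fixed mature neurons stood at 316 CPM (196 to 483) in place of 3278 CPM, and 11 of the 19 held no UMI. In the fresh library 1 of 5 immature neurons held 42 of their 56 UMIs and 1 of 16 nIPCs and neuroblasts held 23 of 27. Over all cells Snhg11 was 2.48-fold higher (1.97 to 3.13) in the MeOH-fixed library, and lower once the cell was left out, with log2 ratios of 1.31 and -0.86. Immature neurons were 8.02-fold lower (4.82 to 13.8) in the MeOH-fixed library, at 72.2 against 579 CPM, and 2.85-fold lower (1.35 to 5.84) without the fresh cell with 42 UMIs.

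**Figure D3:**
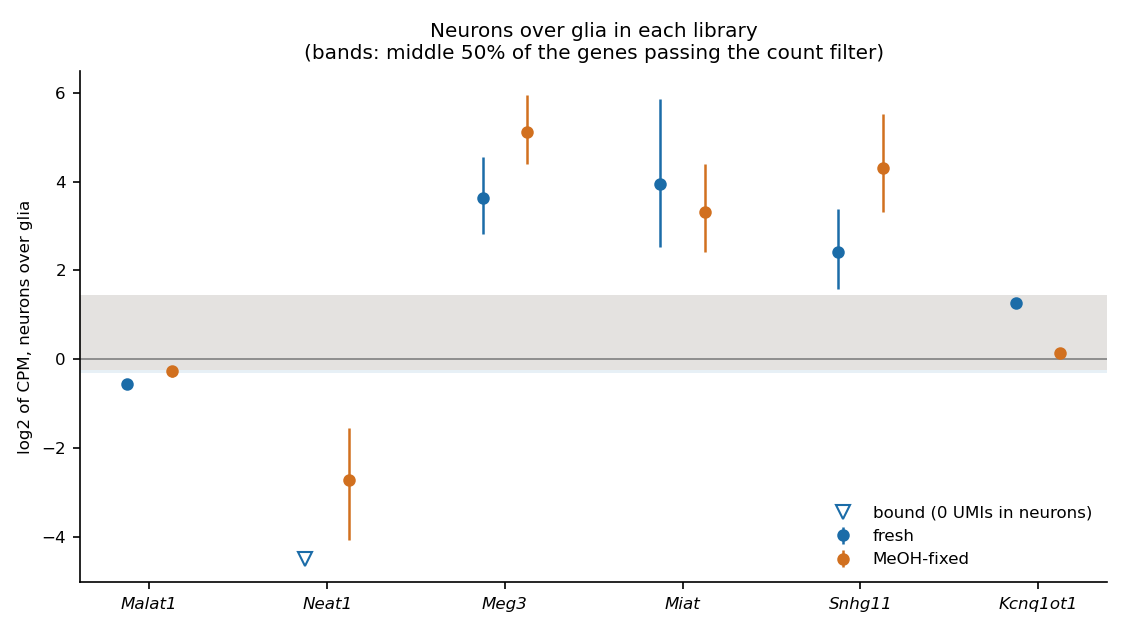
Log2 ratio of CPM, neurons over glia, of each RNA in the fresh (blue) and MeOH-fixed (orange) library, with exact 95% intervals for counting error. The open triangle is a bound at a floor of 3 counts, and the shaded bands, in the colour of the library, run between the quartiles of the 1022 genes that passed the filter. Meg3, Miat and Snhg11 lie above the band in both libraries, Neat1 far below it and Malat1 just below it.

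Of the 6 RNAs, 3 (Meg3, Miat and Snhg11) were at least 2-fold higher in neurons in both libraries, beside 26.1% of the 1022 genes. In the fresh library alone Kcnq1ot1 was a further one, with 38.3% of all genes, and in the MeOH-fixed library the same 3 passed, with 34.1%. The median log2 ratio over the 6 was 1.84 in the fresh and 1.72 in the MeOH-fixed library, with Neat1 at its bound in the former, against 0.62 and 0.57 over the 1022 genes. Without the 2 fresh cells called mature neurons the first median was 1.13, and without the cell with the most Meg3 the second was 0.97. At least 1 UMI of Meg3, Miat or Snhg11 was found in 19 of 23 fresh and 52 of 65 MeOH-fixed neurons, and in 9 of 35 and 17 of 59 glial cells. All 3 were found in the same cell in 4 fresh and 11 MeOH-fixed neurons, and in 2 and 0 glial cells.

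Kcnq1ot1 was spread over all cell types. In the fresh library, 6 identities lay between 4971 CPM in nIPCs and neuroblasts and 7396 CPM in endothelial cells. Within this range endothelial cells, microglia (7154 CPM), astrocytes and RGLs (6857 CPM), OPCs (6654 CPM) and immature neurons (6631 CPM) each overlapped the next. In endothelial cells 92 of 143 UMIs came from 1 of 6 cells, and the others stood at 3573 CPM (2660 to 4698). The 2 fresh oligodendrocytes had 1625 CPM (1161 to 2212), with 39 of 40 UMIs in one of them, and the 2 cells called mature neurons had 200036 CPM, nearly all of it from the one with 2018 UMIs. In the MeOH-fixed library mature neurons had 14038 CPM (13248 to 14862), or 12402 CPM (11565 to 13285) without the cell with the most Meg3. The other 7 identities lay between 3390 CPM in immature neurons and 6609 CPM in nIPCs and neuroblasts. A UMI was found in 61 of 64 fresh and 129 of 132 MeOH-fixed cells.

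Both contrasts of Kcnq1ot1 turn on the fresh cell with 28.0% of its counts in this RNA. Over all cells the level was 11058 CPM in the fresh and 5695 CPM in the MeOH-fixed library, 1.94-fold lower (1.86 to 2.02). Without the 2 cells called mature neurons the fresh level was 5961 CPM and MeOH-fixed cells were 1.05-fold lower (0.999 to 1.10), an interval that holds equal levels. In fresh neurons over glia the fold was 2.39 (2.25 to 2.55), and without these cells neurons were 1.14-fold lower (1.06 to 1.22), at 5557 against 6318 CPM. MeOH-fixed neurons and glia stood at 5896 and 5376 CPM, 1.10-fold higher (1.03 to 1.17) in neurons, and without the cell with the most Meg3 the log2 ratio was -0.017. Within identities the ratio of MeOH-fixed over fresh went both ways, with oligodendrocytes 3.92-fold higher (2.84 to 5.55) and immature neurons 1.96-fold lower (1.77 to 2.16). In oligodendrocytes 371 of the 565 MeOH-fixed UMIs came from 1 of 13 cells, and without it the fold was 1.41 (1.00 to 2.04).

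Kcnq1ot1 was also measured in barcodes that the filter had removed. They come from the same plates, whose values were in view when the RNAs were chosen, so this too is a description. The failing barcodes include wells that held no cell, kept as controls, which were not told apart here. The paper describes such wells with the sort of the MeOH-fixed cells and does not mention them again for the fresh plate. In the MeOH-fixed plate the 252 barcodes that failed held 5539 UMIs of Kcnq1ot1, at 68190 CPM (66406 to 70010), against 5695 CPM in the 132 that passed. In the fresh plate the 320 that failed were at 5869 CPM (5472 to 6287). Among failing MeOH-fixed barcodes with at least 100 UMIs, 36 of 168 had over 10% of their counts in Kcnq1ot1, from 10.5% to 28.9%, and these held 91.9% of its UMIs in the failing barcodes. Another 4 lay between 5% and 10%, and the median of the rest was 0.428%. Of failing fresh barcodes 6 of 215 were over 10%, and of those that passed 1 of 64 fresh and 0 of 132 MeOH-fixed ones, the 1 being the cell called a mature neuron. The limits of 100 UMIs and 10% were chosen after the values were seen.

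The barcodes high in Kcnq1ot1 shared other genes. Summed over these 43 barcodes, Kcnq1ot1 took 23.2% of the counts, Gm17821 16.3%, A630089N07Rik 11.02%, Grk4 (a G protein-coupled receptor kinase) 6.52% and Vmn2r55 (a vomeronasal receptor) 5.22%. In the other 536 barcodes of at least 100 UMIs these genes took 0.573%, 0.352%, 0.231%, 0.117% and 0.0855%. The median failing MeOH-fixed barcode of this kind had 402 transcripts and 151 genes. As a group they had 0.148% of their counts in Malat1 and 5.15% in mitochondrially encoded genes. In the GENCODE transcripts of these partner genes the longest run of A has 5 to 9 letters, where that of Kcnq1ot1 has 41. Introns and flanking sequence were not searched. What these barcodes hold was not tested.

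**Figure D4:**
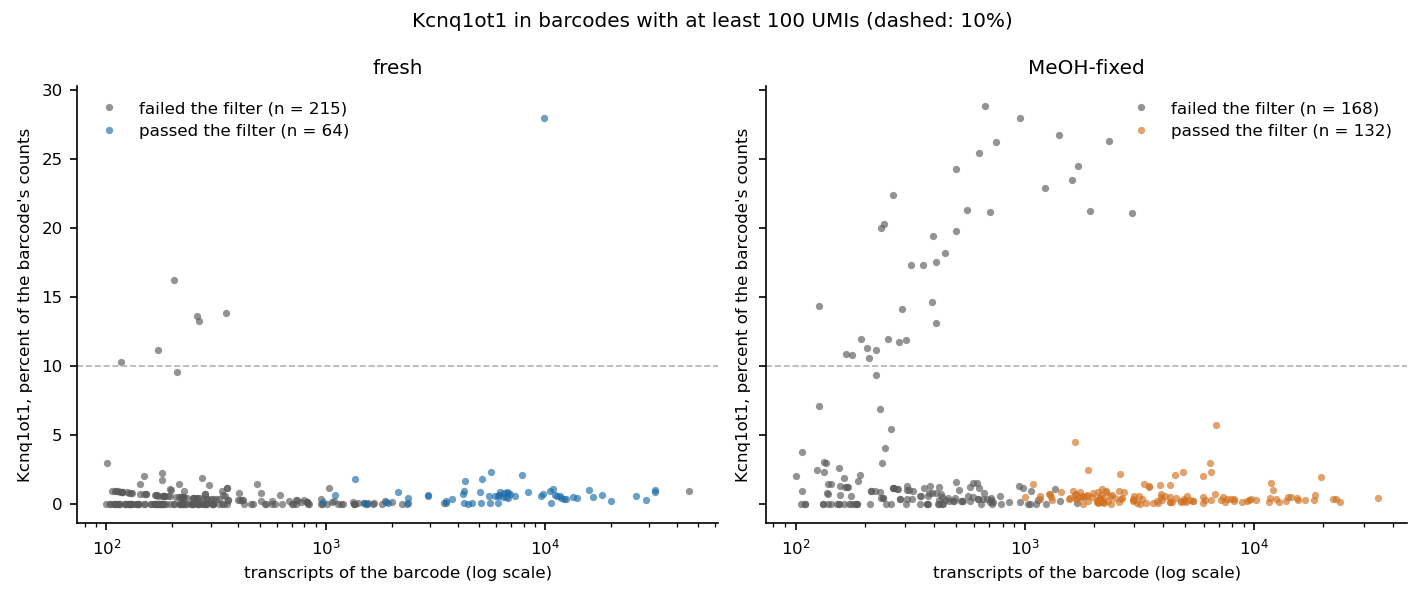
Percent of counts from Kcnq1ot1 against the transcripts (log scale) of every barcode with at least 100 UMIs, in the fresh (left) and MeOH-fixed (right) plate, with barcodes that passed the filter in colour and those that failed in grey. The dashed line is at 10%, above which lie 36 failing MeOH-fixed barcodes, 6 failing fresh ones and 1 fresh cell that passed.

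Of the other 5 RNAs, none was higher in the failing barcodes of a plate than in those that passed once the fresh barcode over 35000 transcripts, which the upper limit removed, was left out. Malat1 was at 1698 CPM (1431 to 2001) in failing MeOH-fixed barcodes and 7304 CPM (6853 to 7777) in failing fresh ones, both below the barcodes that passed. Without the barcode over 35000 transcripts the latter was 3334 CPM (2979 to 3719). Neat1 had 0 UMIs in failing MeOH-fixed and 1 in failing fresh barcodes. Meg3 was at 439 CPM in failing MeOH-fixed barcodes, and in failing fresh ones at 720 CPM with, and 125 CPM without, the barcode over 35000 transcripts.

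**Figure D5:**
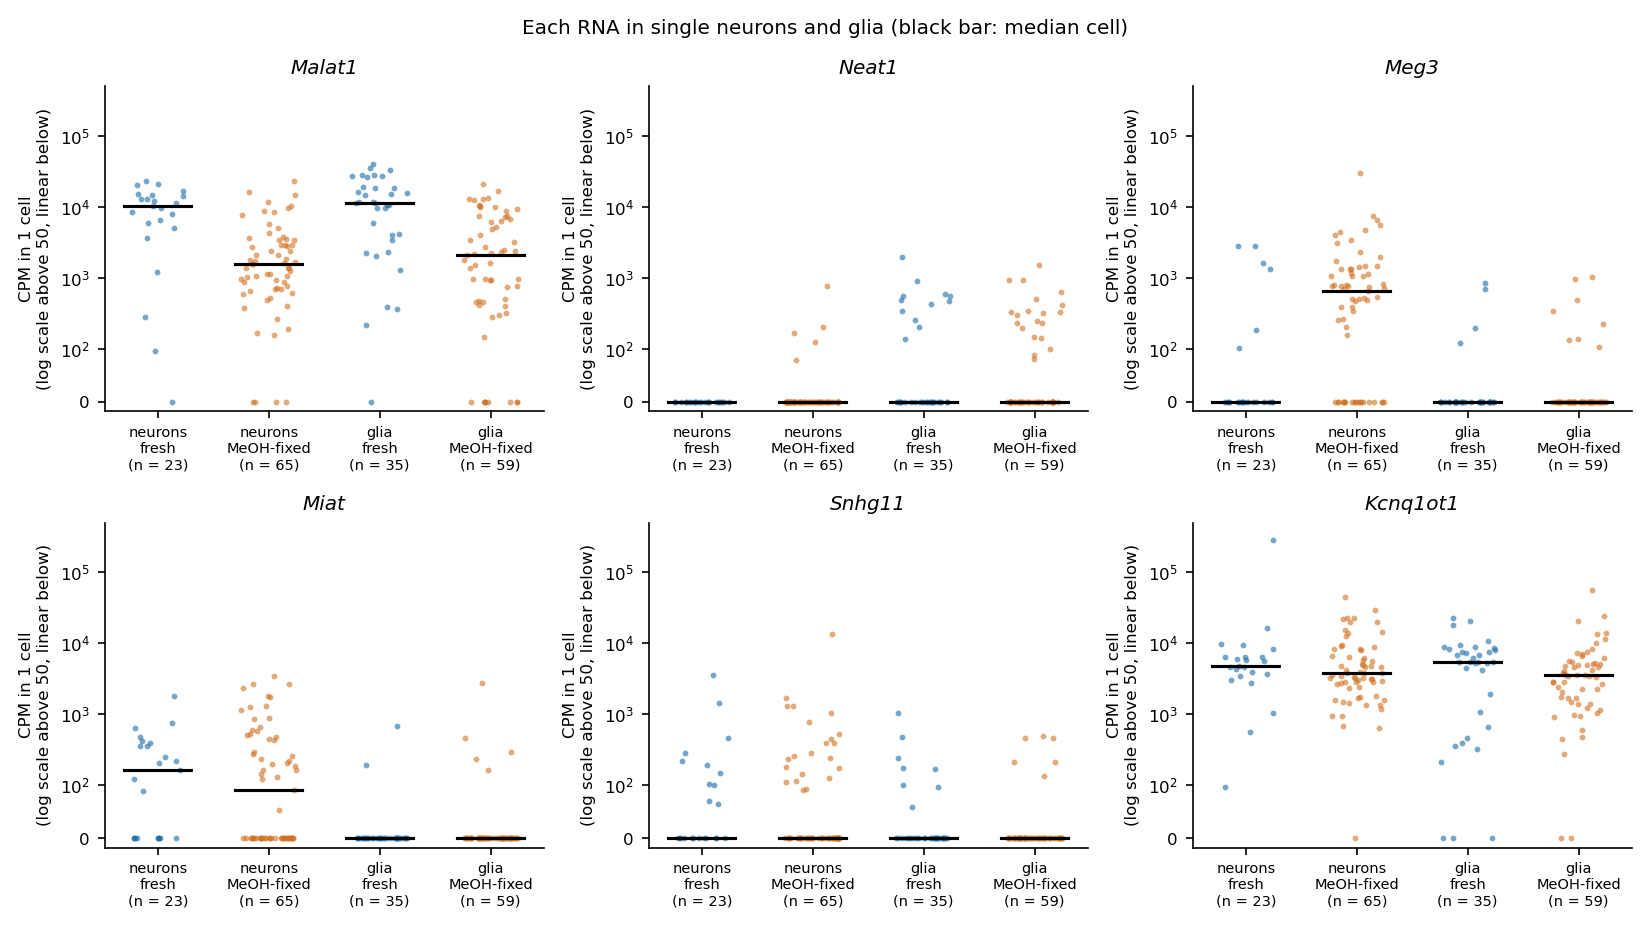
CPM of each RNA in single neurons and glia of the fresh (blue) and MeOH-fixed (orange) library, on an axis that is linear below 50 and logarithmic above it, with black bars at the median cell. Malat1 and Kcnq1ot1 are present in nearly all cells, while the medians of Neat1 and Snhg11 are at 0 in each of the 4 groups, and those of Meg3 and Miat are above 0 only among neurons (Meg3 in MeOH-fixed neurons only).

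The RNAs differed in how evenly they were spread over cells. As a measure, the variance of counts thinned to 800 UMIs was taken, less the part that counting gives, and divided by the squared mean. In fresh neurons this excess was 0.43 for Malat1, 0.92 for Miat, 4.71 for Meg3, 6.31 for Snhg11 and 9.27 for Kcnq1ot1, and the median over genes was 0.51. Without the 2 fresh cells called mature neurons Kcnq1ot1 was at 0.24. In fresh nIPCs and neuroblasts, a single identity, Kcnq1ot1 was at 0.13 and Malat1 at 0.24, beside a median of 0.23 over genes. In MeOH-fixed nIPCs and neuroblasts, however, Kcnq1ot1 was at 1.68 and Malat1 at 2.81, both above the median of 0.42. In MeOH-fixed neurons Malat1 was at 1.81, Kcnq1ot1 at 1.30, Miat at 2.55, Meg3 at 5.61 and Snhg11 at 20.6, with a median of 0.64, and without the cell with the most Meg3 the last 2 were at 1.82 and 3.22. In glia Malat1 was at 0.63 in the fresh and 1.27 in the MeOH-fixed library, and Kcnq1ot1 at 0.77 and 2.10, where the medians over genes were 0.99 and 1.05. In fresh astrocytes and RGLs, however, Malat1 was at 0.76 and Kcnq1ot1 at 1.36, both above the median of 0.52. The highest 7 of the 64 fresh cells held 98.6% of the Meg3 and 40.1% of the Malat1 UMIs. The highest 14 of the 132 MeOH-fixed cells held 94.5% of those of Snhg11 and 51.9% of those of Malat1, and without the cell with the most Meg3 the first was 77.8%.

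The genes of proteins that build nuclear bodies differed little in level between the libraries. Of 33 genes listed for paraspeckles, nuclear speckles and the nuclear matrix, 21 passed the filter, and 0 of these were 2-fold higher or lower in MeOH-fixed cells, beside 13.2% and 4.4% of all genes. Their log2 ratios ran from -0.35 to 0.67 with a median of 0.04. Among the paraspeckle genes, Sfpq stood at 258 CPM in the fresh and 309 CPM in the MeOH-fixed library, and Nono at 194 and 192 CPM. Of the speckle genes, Son, a scaffold of speckles, was at 626 and 490 CPM and Srrm2, another, at 343 and 361 CPM. For neurons over glia, 4 of the 21 were at least 2-fold higher and 1 lower in the fresh library (38.3% and 15.4% of all genes), and 8 and 1 in the MeOH-fixed library (34.1% and 15%). Rbfox3 and Rbfox1, splicing regulators of neurons, had log2 ratios of 6.86 and 5.98 in the fresh and of 4.82 and 5.29 in the other library. Matr3, a protein of the nuclear matrix, was at 2.06 and 1.82. Rbfox3 is also one of the authors' markers of immature neurons, so its ratio, which is among those counted, is not independent of the cell names. Of the proteins that bind the repeats of Miat, Qk was higher in glia, with log2 ratios of -4.09 and -4.11, and Sf1 had -0.25 and 1.17.

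Of 45 other long noncoding RNAs, 24 were listed in the counts and 3 passed the filter. None of these 3 was 2-fold higher in MeOH-fixed cells. Only Xist, the RNA that coats the inactive X chromosome, was at least 2-fold lower, with a log2 ratio of -1.13. The study used mice of mixed sex and does not give the sexes in each pool, so their part in this value was not tested. Gas5, a host gene of small nucleolar RNAs, had a log2 ratio of -0.31 and 2900097C17Rik (Norad) of 0.56. In neurons over glia Norad stood at 1.81 and 1.80 in the respective libraries and Gas5 at 1.36 and 1.01, while Xist stood at -0.19 and 1.09.

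The genes beside the members had low counts. Within 100 kb of Malat1 or Neat1 lay 12 counted genes each, and apart from Malat1 and Neat1 none had over 53 UMIs in a library. Frmd8, 4224 bases from Neat1, had 20 UMIs in the fresh and 47 in the MeOH-fixed library. Kcnq1, which Kcnq1ot1 lies within, had 0 and 1 UMIs against 5193 and 4122 of the antisense RNA. Cdkn1c, a cell cycle inhibitor that the imprinted domain silences on one allele, had 11 and 16. Downstream of Meg3 and 32214 bases from it, Rian had 6 and 31 UMIs, and its level was 17.3 CPM in neurons and 4.28 CPM in glia of the fresh library and 62.6 and 4.25 CPM in those of the MeOH-fixed library. Dlk1 is not listed in the counts.

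The genes with the most similar pattern were taken by Pearson's r of log2(CPM + 1) over the 16 combinations of identity and library. These points share 2 libraries and rest on 2 to 29 cells each, so r is a description. For Meg3 they were Ppfia2 (r = 0.94), Syp, which encodes the synaptic vesicle protein synaptophysin (0.88), and Tmem59l (0.86), and for Miat Rnf112 (0.97), Bex2 (0.97) and Epb4.1l1 (0.96). Neat1 was most like Glul, the glutamine synthetase of astrocytes (0.88). Snhg11 was most like Meg3 (0.76), but Huwe1 (0.79) came first without the fresh mature neurons and Ywhag (0.79) without the cell with the most Meg3. Meg3 and Miat had an r of 0.81. For Malat1 the highest was the mitochondrially encoded mtNd4l (0.68), and Gm10845 (0.79) without the fresh mature neurons. Kcnq1ot1 was most like Gm17821 (0.99), Grk4 (0.99) and A630089N07Rik (0.98), the genes that it shared with the failing barcodes. Without the fresh mature neurons the first 2 of these were at 0.95 and 0.94 and came first again.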

How the data were processed

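The authors mapped the reads of the SORT-seq plates to GRCm38 with STAR and removed duplicates by UMI. The submitters' processing notes also name R 4.2.0 and Seurat 4.1.0. The deposited values are expected counts, that is UMI counts that the authors adjusted for repeated draws among 4096 possible tags. The percent of mitochondrial counts per cell was also used as deposited by the authors, who left out spike-ins. Inverting this gave whole UMI numbers (largest distance 3.64e-12). The authors' filter asked for 800 to 35000 transcripts, over 500 genes, over 1.2 transcripts per gene and over 500 counts of spike-ins. All 196 filtered cells meet it. Medians of transcripts per cell were 6332 (fresh) and 3463 (MeOH-fixed). Doublets were not called beyond the sort gates and the upper limit.

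CPM was the summed adjusted count over the summed total. Intervals at 95% are exact Poisson (levels), conditional binomial (ratios) and Clopper-Pearson (shares), for counting error only, and a count of 0 was set to 3 counts for bounds. No test was made, since each condition is 1 library. Shares and spread after thinning are exact expectations at 800 UMIs, which every cell exceeds. The named genes are the members, listed genes with at least 200 UMIs, counted neighbours and the 3 genes most like each member. Genes in the high-Kcnq1ot1 barcodes, Rian and Cdkn1c were named after values were seen. The members and lists were chosen with earlier results of these data known. The alternatives were 15 planned and 3 added after the data were seen, which left out the fresh cells called mature neurons, the cell with the most Meg3, or the highest cell of an identity. Intervals and spread were tested on simulated data. Tools were Python 3.11.15, scipy 1.17.1, numpy 2.4.6, matplotlib 3.10.9 and pandas 2.3.3.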

Additional observations from a re-analysis of the deposited data

Results flagged for a closer look

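Neat1 was listed for its values in neurons and glia, which were on different sides of 0. In glia its level was lower in the MeOH-fixed library, with a log2 ratio of -1.09 (26 against 55 UMIs). Neurons held 8 UMIs in the MeOH-fixed and 0 in the fresh library, and setting the latter to 3 counts gives a log2 ratio of 0.69. The intervals of the 2 levels, 7.21 to 32.9 and 0 to 12.7 CPM, overlap, and 4 of the 8 UMIs came from the mature neuron with the most Meg3, without which the level fell from 16.7 to 8.70 CPM, so no direction is shown in neurons. The difference between the classes was not tested, as each condition has 1 library.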

How the results depend on the processing

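No paired analysis was possible because the groups share only replicate number 1, with 1 library each. Of the 66 alternative values of the medians and counts over the 6 RNAs, 54 stayed within a factor of 1.5 (counts) or within the median bounds of the members' counting intervals (medians). Between the libraries the median log2 ratio (0.01) was 0.52 with each identity weighted equally, -0.48 per spike-in count, -0.60 per cell and -0.96 without the MeOH-fixed cell with the most Meg3. For neurons over glia in the fresh library (1.84) it was 2.93 with equal identities, 2.64 per spike-in count, 2.76 per cell, 2.78 without nIPCs and neuroblasts and 1.13 without the 2 cells called mature neurons. In the MeOH-fixed library (1.72) it was 2.42 per spike-in count, 2.61 per cell and 0.97 without the cell with the most Meg3. The count of RNAs past the fold limit between the libraries was 4, 6 at a limit of 1.5 and 3 without that cell. The count at least 2-fold higher in neurons in both libraries was 3. In counts per cell Kcnq1ot1 passed as well, with a log2 ratio of 1.02 in the MeOH-fixed library.

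Malat1 turned to higher in neurons per spike-in count (log2 0.24 fresh, 0.42 MeOH-fixed), per cell (0.36, 0.61) and, in the MeOH-fixed library, with equal identities (0.27). Kcnq1ot1 in neurons over glia turned to -0.19 in the fresh library without the 2 cells and to -0.017 in the MeOH-fixed library without the cell with the most Meg3, and Snhg11 over the libraries to -0.86 without that cell. Malat1 stayed lower in the MeOH-fixed library under all 11 alternatives (-2.45 to -1.79). The cause of the other shifts was not tested. At 94 UMIs of Neat1, depth limits its order among identities.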
